A study of Mus musculus with 35 samples.

Results

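Open chromatin of haematopoietic stem cells (HSCs) was compared with that of haematopoietic progenitor cells (HPCs) in mice at postnatal day 14 (P14), on a B6 background. ATAC-seq reads out accessible DNA as the places where the enzyme Tn5 can insert adapters, and stretches with many insertions were called as peaks. The series holds 35 libraries and 12 peak lists, 1 pooled list per group. Set 1 (8 lists) has HSCs of fetus (E16.5), P14 and adult (8 weeks) and HPCs of fetus, P7, P14, P21 and adult, and set 2 (4 lists) has HSCs and HPCs of P7 mice that are wild type or lack the interferon receptor gene Ifnar (Infnar_KO in the labels), the HPCs there being titled 48+LSK. At P14 there were 3 HSC and 2 HPC libraries, for which the labels give cell type and age and no treatment (the strain is from the series description). In set 1 the adult libraries are titled WT, the P14 HPC libraries are described as wt, and the P14 HSC libraries carry no genotype. Apart from the title 48+LSK in set 2, the labels do not give the surface markers used for sorting. They also do not give whether libraries came from separate animals, or the read depth. Each P14 list was taken by its own name. This goes against the sample descriptions, in which all 3 P14 HSC libraries name the adult HSC list, 1 P14 HPC library names the P7 HPC list and the other the P14 HSC list. The P14 HSC list is also named by 2 P21 HPC libraries, and the P14 HPC list by 2 adult HSC libraries. By the descriptions, the cell types of both lists would thus be the other way round, and all results below rest on the names of the lists.

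Touching or overlapping peaks on chromosomes 1 to 19 and X were merged into regions, which gave 73287 regions (47.2 Mb) in P14 HSCs and 91043 regions (53.6 Mb) in P14 HPCs, of 891747 regions over the 12 lists. Regions that overlapped by 1 bp or more between the P14 lists were shared, and the others were list-specific, or alone. Strong regions were those with a -log10 p (the authors' own value for each peak) at or above the median of the list, 79.6 in HSCs and 60.2 in HPCs. Where a list lacks a region, no peak was called, and the chromatin may still be open. There was 1 list per group, so no value at P14 has a spread between replicates, and intervals after a share are 95% Clopper-Pearson intervals. They cover counting error over regions and nothing else, and regions need not be independent of each other.

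HSCs maintain blood formation for life, divide rarely and renew themselves. HPCs are their multipotent descendants, which divide more and begin to open the programmes of lymphoid and myeloid cells. Open chromatin marks promoters, the sequences just before gene starts, and distal elements such as enhancers, and distal elements differ between related blood cells more than promoters do.

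As examples of list-specific regions at gene starts, 6 promoter windows are shown here, chosen after their values were seen from genes with known roles in blood cells or development. They are not the strongest: among 92 listed windows with a strong HPC-alone region the highest -log10 p were at Epha3 (319), Vwc2l (199) and Olfr420 (195), and they stand for no kind of gene. Hoxa5 (chr6:52204538-52204837, minus strand), a homeobox gene, and H2-Q6 (chr17:35424600-35424899, plus strand), a class Ib MHC gene, were called in P14 HSCs and not in P14 HPCs. Rag1 (chr2:101649483-101649782, minus strand), which encodes a recombinase of antigen receptor genes, Siglech (chr7:55767934-55768233, plus strand), a receptor gene of plasmacytoid dendritic cells, Btla (chr16:45224087-45224386, plus strand), an inhibitory receptor gene of lymphocytes, and Trem1 (chr17:48232489-48232788, plus strand), a receptor gene of myeloid cells, were called in P14 HPCs and not in P14 HSCs. The sequences are those of RefSeq for GRCm38.p6, from 250 bases before to 50 bases after the start, 5′ to 3′ on the gene's strand. Capitals mark matches on either strand to the motifs TGTGGTT (RUNX), TTGCNNAA (CEBP) and GAGGAAGT (ETS factors such as PU.1), and windows without capitals held no match to any of the 6 motifs searched.
Hoxa5: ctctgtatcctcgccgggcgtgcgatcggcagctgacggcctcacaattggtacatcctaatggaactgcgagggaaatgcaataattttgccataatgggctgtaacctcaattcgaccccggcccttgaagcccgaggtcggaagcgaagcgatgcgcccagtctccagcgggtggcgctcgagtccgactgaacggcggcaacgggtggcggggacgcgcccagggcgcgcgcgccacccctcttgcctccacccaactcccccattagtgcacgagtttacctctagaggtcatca
H2-Q6: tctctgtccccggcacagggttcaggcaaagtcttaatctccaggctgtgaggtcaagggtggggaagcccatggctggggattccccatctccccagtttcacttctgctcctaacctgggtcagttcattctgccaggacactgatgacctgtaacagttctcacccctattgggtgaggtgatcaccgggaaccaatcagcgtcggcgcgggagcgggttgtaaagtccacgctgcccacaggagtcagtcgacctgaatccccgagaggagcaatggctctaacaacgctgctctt
Rag1: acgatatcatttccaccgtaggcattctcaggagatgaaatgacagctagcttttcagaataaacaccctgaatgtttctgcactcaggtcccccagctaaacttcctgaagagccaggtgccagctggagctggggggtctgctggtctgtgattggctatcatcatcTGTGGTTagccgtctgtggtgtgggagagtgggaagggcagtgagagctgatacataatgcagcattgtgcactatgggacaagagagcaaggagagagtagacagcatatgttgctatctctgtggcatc
Siglech: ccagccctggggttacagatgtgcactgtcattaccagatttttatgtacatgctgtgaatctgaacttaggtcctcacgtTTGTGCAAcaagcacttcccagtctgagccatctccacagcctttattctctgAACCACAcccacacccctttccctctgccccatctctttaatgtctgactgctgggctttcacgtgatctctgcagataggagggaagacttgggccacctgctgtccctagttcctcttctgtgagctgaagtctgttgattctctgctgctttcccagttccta
Btla: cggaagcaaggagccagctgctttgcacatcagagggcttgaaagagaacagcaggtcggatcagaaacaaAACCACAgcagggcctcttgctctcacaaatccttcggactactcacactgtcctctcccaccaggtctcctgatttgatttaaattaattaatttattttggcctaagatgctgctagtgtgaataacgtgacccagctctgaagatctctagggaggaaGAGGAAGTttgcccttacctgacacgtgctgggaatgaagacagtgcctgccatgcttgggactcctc
Trem1: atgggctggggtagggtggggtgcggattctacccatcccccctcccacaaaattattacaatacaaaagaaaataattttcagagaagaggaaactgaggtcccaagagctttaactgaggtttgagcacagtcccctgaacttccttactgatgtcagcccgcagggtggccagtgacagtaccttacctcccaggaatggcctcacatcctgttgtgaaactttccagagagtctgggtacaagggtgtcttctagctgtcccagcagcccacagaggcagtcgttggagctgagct
The region at Hoxa5 had a -log10 p of 97.5 and was called in 3 of the other 4 HSC lists and 2 of the other 6 HPC lists. That at H2-Q6 reached 171 and was likewise in 3 HSC and 2 HPC lists. The regions at Siglech (167), Btla (152) and Trem1 (144) were called in all 6 other HPC lists and in none of the 4 other HSC lists. The Rag1 region (84.7) was called in all 6 other HPC lists, and of the HSC lists in those of fetus and adult.

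Most open chromatin was called in both cell types, and P14 HPCs had more list-specific regions than P14 HSCs. Of the strong HSC regions, 961 of 36644 (2.62%, 2.46 to 2.79) were in HSCs alone, and of the strong HPC regions, 4776 of 45638 (10.5%, 10.2 to 10.7) were in HPCs alone. Over regions of any strength, 11631 (15.9%) were in HSCs alone and 28428 (31.2%) in HPCs alone. The HPC list is longer, and a longer list has more regions that a shorter list lacks. With the HPC list reduced to the 73287 regions of highest -log10 p, the strong limit in HPCs rose to 82.5, and the strong list-specific regions numbered 1507 (4.11%, 3.91 to 4.32) in HSCs and 2663 (7.27%, 7.0 to 7.54) in HPCs. At that equal length the shares over all regions were 22.7% in HSCs and 22.2% in HPCs. At equal length the larger share in HPCs was thus seen among strong regions and not over all regions.

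List-specific regions were mostly weak ones. Each list was ranked by -log10 p and split into 10 classes of equal size. In the weakest class of the HSC list (-log10 p from 1.05 to 21.3) 50.9% of regions were in HSCs alone, against 7.83% in the sixth and 1 of 7329 regions in the strongest. In the HPC list the share fell from 74.8% in the weakest class (1.06 to 16.1) through 23.5% in the sixth to 0.725%, or 66 of 9105 regions, in the strongest. The share was higher in HPCs in each of the 10 classes, as the plot of shares by strength shows. These classes are of the full lists, of which that of HPCs is longer. They were not counted at equal length, where the shares over all regions were 22.7% in HSCs and 22.2% in HPCs.

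**Figure D1:**
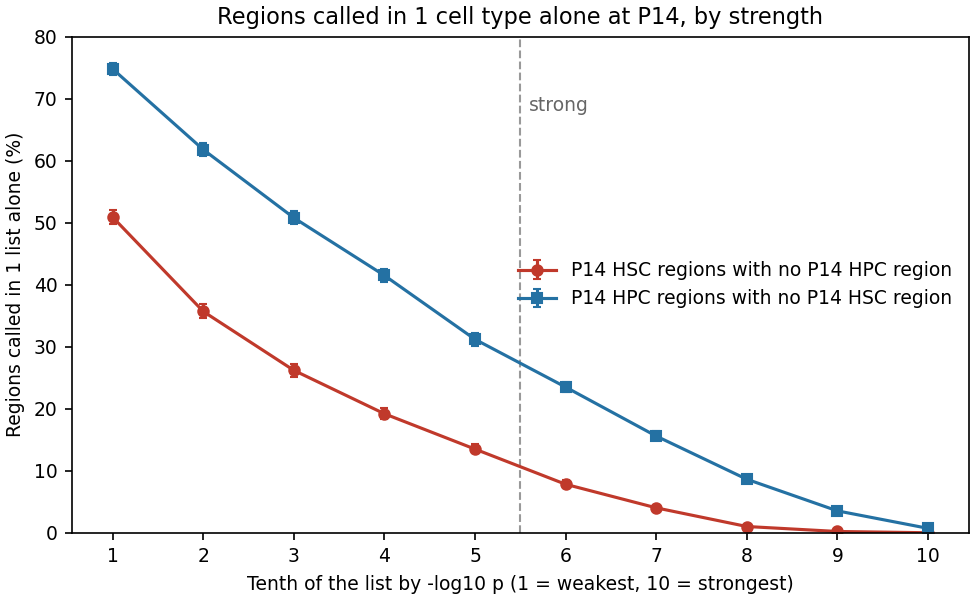
Share of regions called in 1 P14 list alone (y axis, %) by class of -log10 p in that list (x axis, 1 weakest to 10 strongest), HSCs as circles and HPCs as squares, with exact 95% intervals. Both lists are at full length, and that of HPCs is longer. The dashed line marks the lower end of the strong regions, and the share falls from 50.9% to 0.0136% in HSCs and from 74.8% to 0.725% in HPCs.

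The 10 other lists of the series, which had no part in choosing the list-specific regions, were used to ask whether the P14 differences followed cell type at other ages. The 961 strong HSC-alone regions were called more often in the other HSC lists than in the HPC lists: 80.4% in adult HSCs, 79.2% in fetal HSCs, 75.7% in P7 wild-type HSCs and 67.4% in P7 knockout HSCs. In the HPC lists the shares ran from 30.7% (P21) and 31.7% (P7, set 1) through 39.9% (adult) and 50.2% (fetus) to 53.8% and 54.1% (P7 wild type and knockout, set 2). These ranges did not overlap. Of all strong P14 HSC regions, fetal and adult HSCs held 97.7% each, and P7 wild-type and knockout HSCs 93.6% and 89.9%. In the HPC lists the lowest such share was 92.6% (P7 of set 1 and P21). Over all strong HSC regions the ranges of HSC and HPC lists thus overlapped. The 4776 strong HPC-alone regions were called in 98.7% of cases in adult HPCs, 96.4% in P7 HPCs of set 1, 90.7% in fetal HPCs and 88.1% in P21 HPCs, and in 65.8% and 51.7% in P7 wild-type and knockout HPCs of set 2. Of the same regions, 6.78% and 5.88% were called in P7 wild-type and knockout HSCs, although those lists held 74.2% and 70.7% of all strong P14 HPC regions. Fetal and adult HSCs, in contrast, had 65.9% and 71.0% of the HPC-alone regions, more than the HPC lists of set 2. These shares thus did not follow cell type throughout. Of all strong P14 HPC regions, fetal HSCs held 93.7% and adult HSCs more. The P7 wild-type and knockout HPC lists of set 2 held 90.5% and 86.8% of them. The part of this difference between whole lists in the HPC-alone shares was not tested. The lists of the 2 sets are of different kinds, named optimal_peak in set 2 and filt in set 1, which includes both P14 lists. The lowest -log10 p in a list was 2.06 to 2.12 in set 2 and 1.0 to 1.06 in set 1.

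The difference of both shares was taken within each list. The HSC-alone share exceeded the HPC-alone share by 38.3 ± 31.3 percentage points in the HSC lists (SD, n = 4 lists, 9.44 to 68.9) and by -38.5 ± 27.7 points in the HPC lists (SD, n = 6 lists, -64.7 to 2.44). The difference between the groups was 76.8 points, and the 4 HSC lists were all above the 6 HPC lists (exact permutation test over lists, two-sided, 210 arrangements, p = 0.00952, the smallest they can give). Within set 1 (2 HSC and 4 HPC lists) it was 66.7 points, and the exact permutation p was 0.133, again the smallest the design can give. The difference also went with list length within a cell type: it was 13.3 and 9.44 in the long HSC lists of fetus and adult (90968 and 89431 regions) and 68.9 and 61.5 in the short ones of P7 (45615 and 42459). The highest HPC values, -12.0 and 2.44, were those of the 2 shortest HPC lists (66044 and 58567 regions). The parts of list length and of the kind of list in the result were not tested. Paired by age and genotype, the HSC list was higher in 4 of 4 pairs, by 65.5 points on average, with an exact permutation p of 0.125 over 16 arrangements of signs, the smallest they can give. Of the HPC lists that of P7 knockout mice was nearest to the HSC lists.

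**Figure D2:**
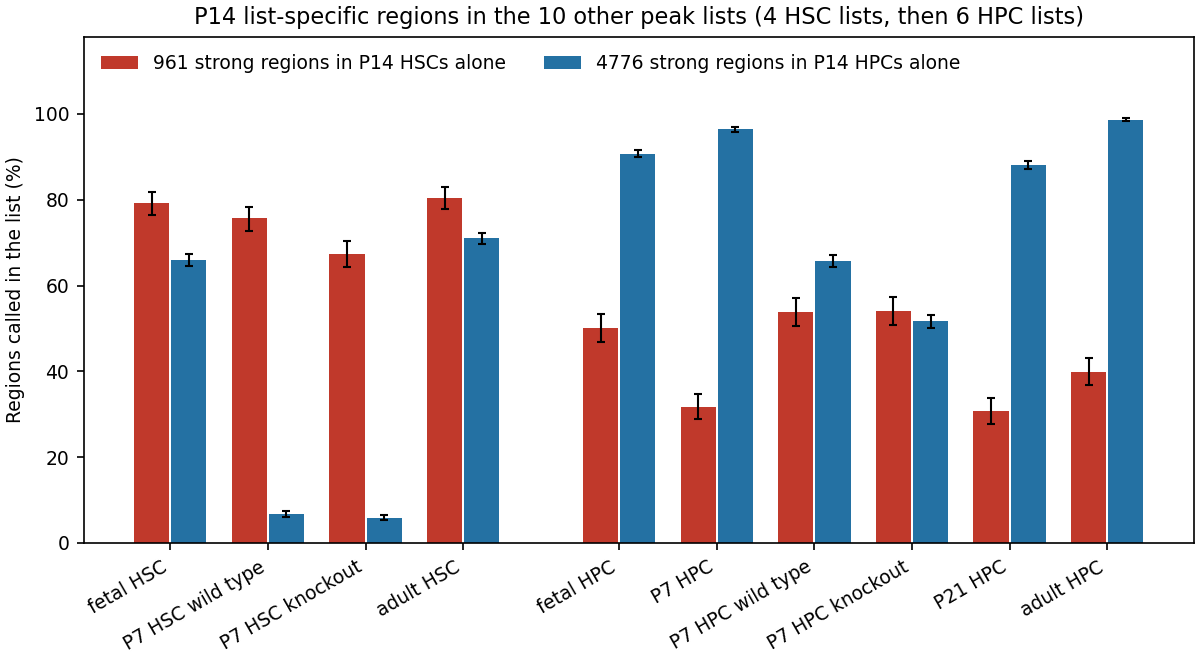
Share (y axis, %) of the strong regions in P14 HSCs alone (red) and in P14 HPCs alone (blue) that were called in each of the 10 other lists (x axis), with exact 95% intervals. Red bars stand between 67.4% and 80.4% in the HSC lists and between 30.7% and 54.1% in the HPC lists, and the lowest blue bars are the 2 P7 HSC lists of set 2 (6.78% and 5.88%).

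Complete agreement with cell type was rare. Of the HSC-alone regions 43 (4.47%, 3.26 to 5.98) were called in all 4 other HSC lists and in 0 of the 6 HPC lists, and none had the opposite pattern. Of the HPC-alone regions 507 (10.6%, 9.76 to 11.5) were called in all 6 other HPC lists and in 0 of the 4 HSC lists, and again none had the opposite pattern. The cut to equal length removes HPC regions only, so all 43 HSC-alone regions had to stay list-specific and strong. Of the 507 HPC-alone regions, 340 reached the higher strong limit of 82.5 at equal length. Most HPC-alone regions were called in HSCs of another age: 2685 (56.2%, 54.8 to 57.6) were called in both fetal and adult HSCs, 1170 (24.5%) in 1 of these lists and 921 (19.3%) in neither. In the other direction, 217 HSC-alone regions (22.6%, 20 to 25.4) were called in both fetal and adult HPCs, 431 (44.8%) in 1 of them and 313 (32.6%) in neither. The P14 HSC list itself overlapped most, by the Jaccard index (shared regions as a part of all regions of the pair), with the P7 knockout and wild-type HPC lists of set 2 (0.619 and 0.617) and the adult HSC list (0.616). The P14 HPC list overlapped most with the adult (0.698), P7 (0.685) and P21 (0.683) HPC lists. The index with each other was 0.606 for the HSC and 0.61 for the HPC list.

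The strongest HSC-alone regions are given by their nearest genes. Near Abcb10, a mitochondrial transporter gene, a region on chromosome 8 (123988581 to 123989239, -log10 p 366) was called in all 4 other HSC lists and in 3 HPC lists. A region in Tle3 (301), a gene of a Groucho-family corepressor, had the same counts. In Rfc5, a gene of the clamp loader of DNA replication, a region on chromosome 5 (117382925 to 117383705, 259) was called in the 4 other HSC lists and in no HPC list. The regions in Vwa5b1 (251) and near Sh3bp4 (248) were in 4 HSC lists and in the fetal HPC list. The region with the highest value, 658 bp in Rhof beside Tmem120b (524), was called in all 10 other lists and was missing from P14 HPCs alone. Of the 15 leading genes 14 had their region in all 4 other HSC lists, the exception being Tekt4 (295), whose region was missing from adult HSCs. Over all 961 HSC-alone regions, 394 (41.0%) were called in all 4 other HSC lists. The leaders are the strongest regions, and the part of strength in this was not tested. Other leading genes were Plpp7 (365), Tuft1 (343), Sec14l1 (281), Tspan3 (260.1), Entpd7 (259.9), Chmp5 (247) and Dop1b (239).

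Among the strongest HPC-alone regions, one lay near Ptger2. This gene, which encodes the prostaglandin E2 receptor EP2, had the region 7.40 kb beyond the gene (chromosome 14, 45011218 to 45011779, 924) that was called in all 6 other HPC lists and, of the HSC lists, in fetus and adult. Cd34, a surface protein gene that marks progenitors and is low in adult mouse HSCs, had a region in its body (chromosome 1, 194943462 to 194944167, 432) with the same pattern. The regions in Il1rap (460.5), a subunit gene of the interleukin 1 receptor, and Inpp5d (419), the gene of the inositol phosphatase SHIP1, also had this pattern. Regions in Ccdc93 (473) and Prxl2a (411) were called in all 6 other HPC lists and in no HSC list. The region in Lamb3 (553), a laminin gene, was called in all 10 other lists and was missing from P14 HSCs alone. The first of all by value, 232 bp near Col19a1 (2648), was in 2 HSC and 4 HPC lists, so it did not follow cell type. The remaining leaders lay near Fbxl17 (655), Arhgap10 (654), Acss1 (595), Slc8a1 (538), Olfr985 (456), Cdc42ep3 (414) and Pacrgl (413), each in all 6 other HPC lists and in 1 to 3 HSC lists. Over all 4776 HPC-alone regions, 1904 (39.9%) were called in all 6 other HPC lists.

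**Figure D3:**
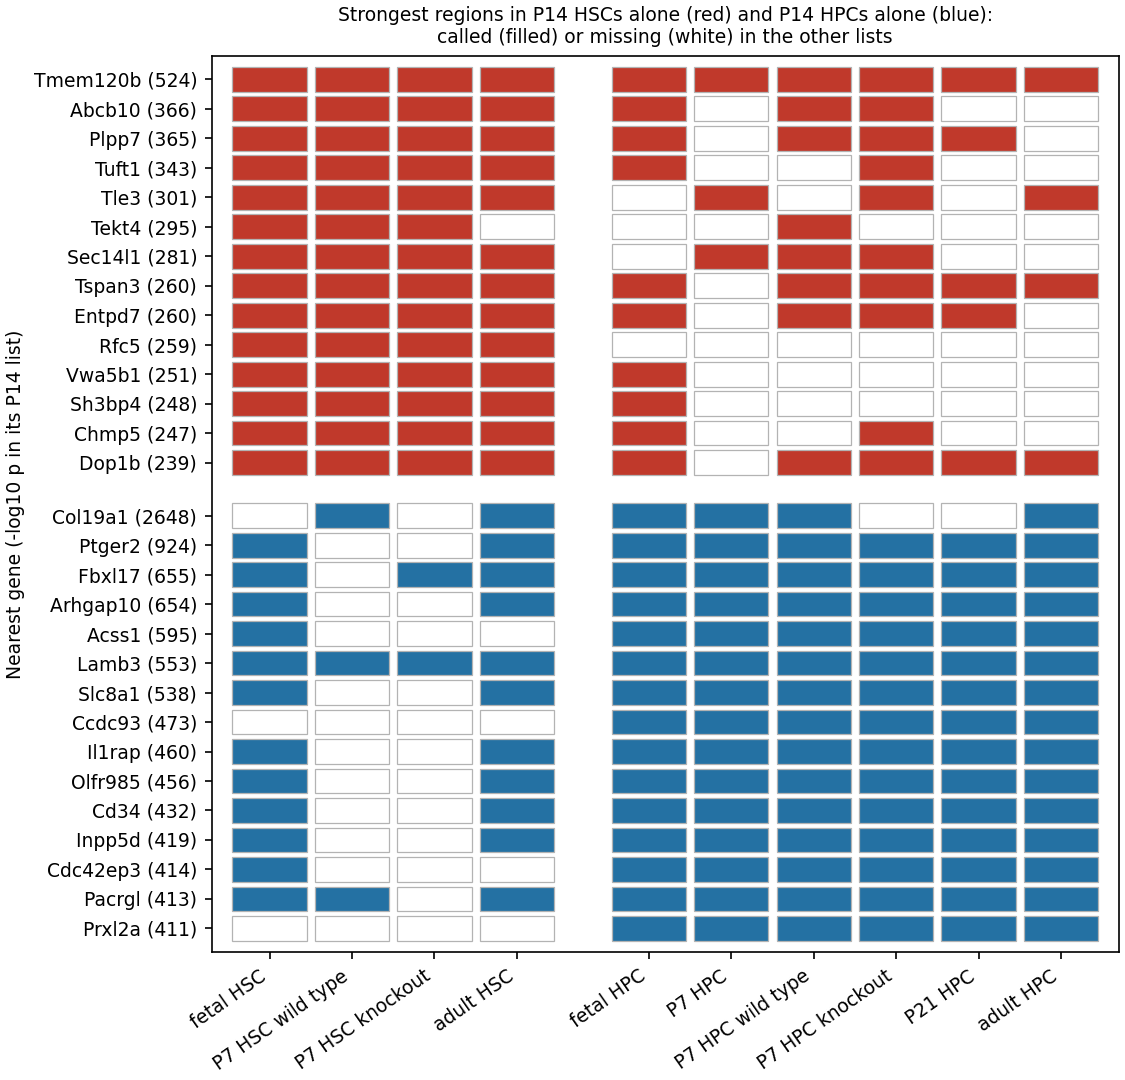
Leading genes with a strong region in P14 HSCs alone (red, 14 genes) and in P14 HPCs alone (blue, 15 genes), with the -log10 p of the region in its P14 list, against the 10 other lists (x axis); filled squares are called and white squares missing. Rfc5 is filled in the 4 HSC lists only, Ccdc93 and Prxl2a in the 6 HPC lists only, and Tmem120b and Lamb3 in all 10.

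Strong list-specific regions were mostly distal, narrower than shared ones and placed in different surroundings in the 2 cell types. They were also weaker, with a median -log10 p of 102 in HSCs and 87.3 in HPCs, against 199.7 and 158 for strong shared regions. The part of strength in the differences from shared regions was not tested. The median width of list-specific regions was 581 bp in HSCs and 534 bp in HPCs, against 722 and 678 bp for strong shared regions of these lists. A single summit was recorded in 61.5% and 70.4% of them, against 41.5% and 52.3% of shared regions. Within 1 kb of a gene start lay 5.31% (3.98 to 6.92) of HSC-alone and 5.05% (4.44 to 5.71) of HPC-alone regions, against 30.1% and 28.0% of shared regions. Few were near misses: 5.1% of HSC-alone and 4.84% of HPC-alone regions lay within 500 bp of a region of the other list, and the median distance to it was 6.83 and 12.1 kb.

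HPC-alone regions lay among fewer genes than HSC-alone regions and than shared regions of either list. Within 500 kb of its centre an HSC-alone region had a median of 11 starts of protein-coding genes (quartiles 6 and 19), near the 10 of shared HSC regions. An HPC-alone region had 4 (quartiles 1 and 8), against 8 for shared HPC regions. At most 5 starts were found around 21.2% (18.7 to 24.0) of HSC-alone and 28.8% of shared HSC regions. For HPC-alone and shared HPC regions these shares were 60.5% (59.1 to 61.9) and 35.1%. The distance to the nearest start had a median of 17.2 kb for HSC-alone and 38.2 kb for HPC-alone regions, and 57.6% and 47.1% lay in gene bodies. At equal list length the medians of starts were 12 and 4. In the other pairs of lists the medians of HSC-alone and HPC-alone regions were 5 and 5 in the fetus, 5 and 6 in adults, and 5 and 8 at P7 in both genotypes. These pairs are set side by side without a test. The whole lists differed as well: strong regions had a median of 10 starts in P14 HSCs and in the 4 lists of set 2, 8 in P14 and P21 HPCs, and 7 in the other 5 lists of set 1. HPC-alone regions that were also called in both fetal and adult HSCs had a median of 3 starts, and those called in neither had 6. The part of these differences between whole lists in the result was not tested.

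**Figure D4:**
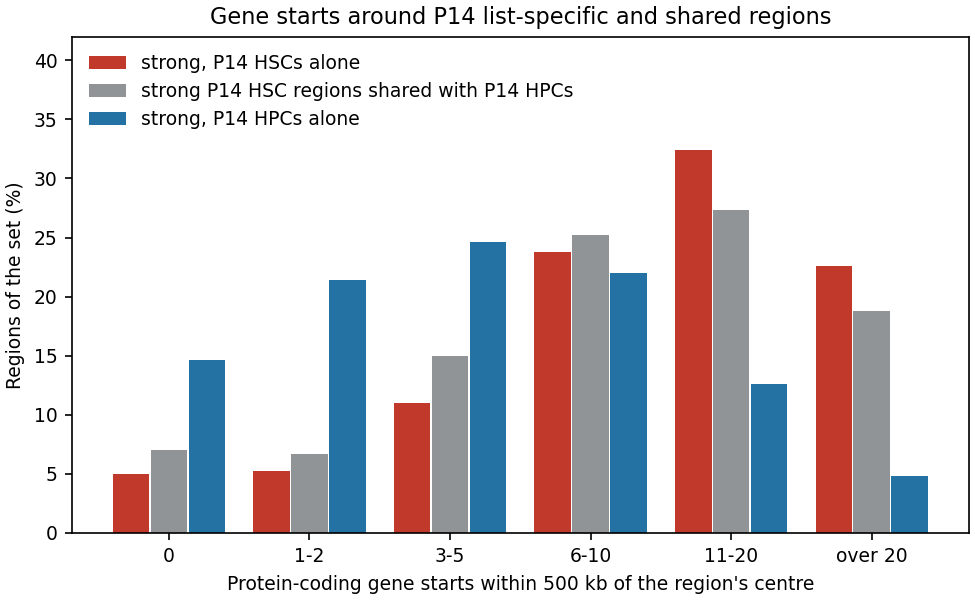
Share of regions (y axis, %) by the number of protein-coding gene starts within 500 kb (x axis), for strong regions in P14 HSCs alone (red), strong P14 HSC regions shared with HPCs (grey) and strong regions in P14 HPCs alone (blue). No start was found around 14.6% of HPC-alone and 4.99% of HSC-alone regions, and over 20 starts around 4.82% and 22.6%.

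The shares also varied between chromosomes, which were not compared by gene density. The HSC-alone share ran from 0.714% on X through 1.60% on chromosome 8 and 1.64% on chromosome 7 to 4.74% on chromosome 11, and the HPC-alone share from 5.56% on chromosome 11 to 14.0% on chromosome 1. Chromosome 11 held 13.9% of HSC-alone regions (134) and 3.06% of HPC-alone regions (146), against 7.54% of shared HSC regions. Its HSC-alone share was the highest of the 20 chromosomes (interval 3.99 to 5.59) and its HPC-alone share the lowest (4.72 to 6.51). On chromosome 1 the HSC-alone share was 1.94%. On chromosome X 5 of 700 strong HSC regions (0.714%, 0.232 to 1.66) and 143 of 1085 strong HPC regions (13.2%, 11.2 to 15.3) were list-specific.

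Among 21631 protein-coding genes, 865 had a strong HSC-alone region in the gene body or 10 kb on each side, 2210 had an HPC-alone region and 91 had both. At least 2 were found at 50 genes in HSCs and at 493 in HPCs. The genes with most HPC-alone regions were very long: Auts2, Ctnna3, Nav2, Negr1, Pcdh15 and Robo2, between 651 and 1574 kb, had 7 each, out of 17, 14, 31, 11, 8 and 16 strong HPC regions, and 0 HSC-alone regions. These genes are known mainly for roles in neurons or cell adhesion. Of the 7 regions in Negr1, 6 were called in both fetal and adult HSCs, and none in both P7 HSC lists. The largest number of HSC-alone regions at a gene was 3. Of the genes with 3, Ccdc187, Dop1b, Hspg2, which encodes the matrix proteoglycan perlecan, and Lasp1, a gene of an actin-binding protein, had 0 HPC-alone regions, while Ablim1 and Kalrn had 1.

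Gene lists were counted in the same windows, and over all protein-coding genes 2.47% of strong HSC regions (719 of 29078) and 7.87% of strong HPC regions (2674 of 33956) were list-specific. The share was higher in HPCs in 12 of the 18 lists at full length and in 9 at equal length. Of the 301 genes in these lists 23 had an HSC-alone region and 55 an HPC-alone region. Over all 21631 protein-coding genes these numbers were 865 and 2210. The HPC-alone regions numbered 62, of which 23 were called in no HSC list. The HSC-alone regions numbered 23, of which 5 were called in no HPC list. Over the whole genome 912 of 4776 HPC-alone regions (19.1%) were called in no HSC list. Of the 961 HSC-alone regions 137 (14.3%) were called in no HPC list. The intervals included the share over all genes except for the B cell and immediate early lists in HPCs and the fetal programme in HSCs, so the lists are given as counts and nothing particular is read from them.

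**Figure D5:**
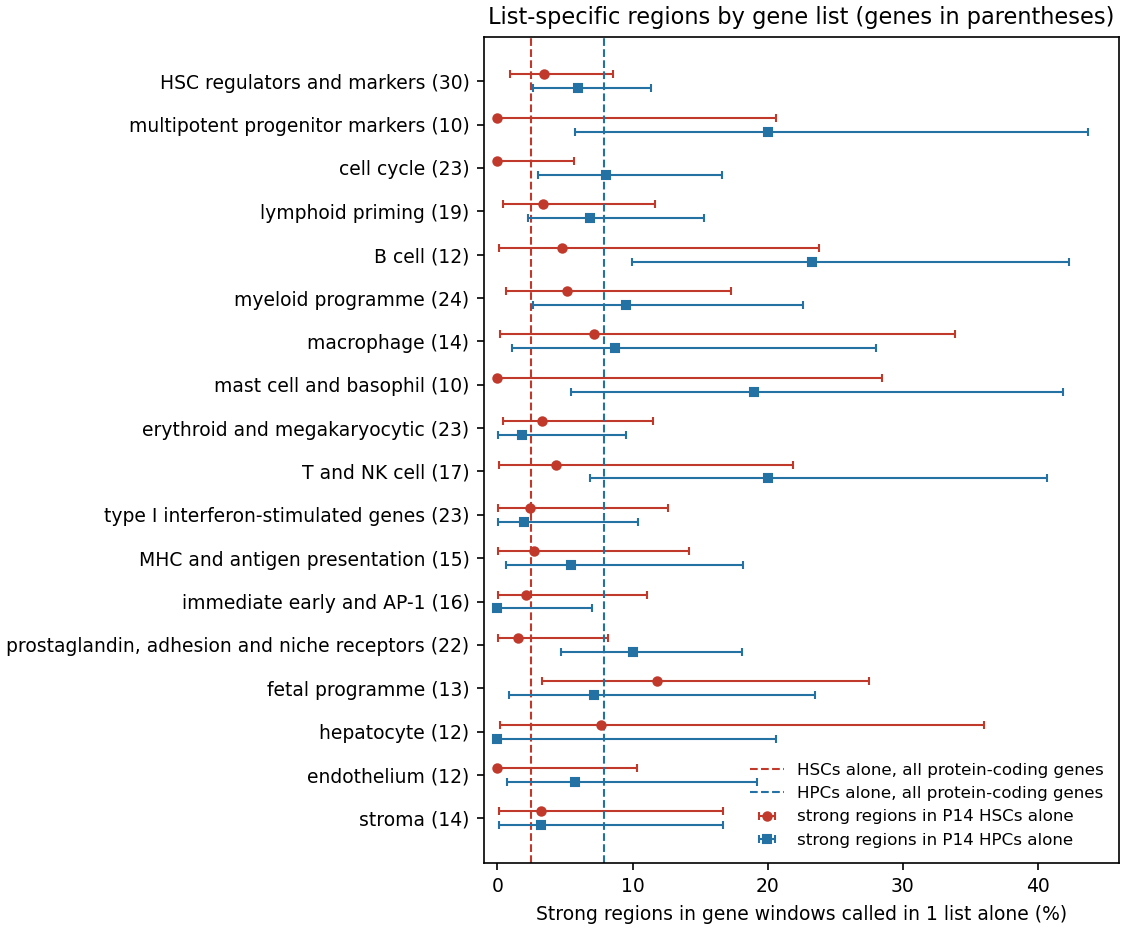
Share of strong regions called in P14 HSCs alone (circles) and P14 HPCs alone (squares) in windows of gene body plus 10 kb, x axis in %, for 18 gene lists (y axis), with exact 95% intervals. Dashed lines give the same shares over all protein-coding genes, 2.47% and 7.87%, and the highest HPC-alone shares are those of the B cell (23.3%), multipotent progenitor (20%), T and NK cell (20%) and mast cell lists (19%).

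At regulators and markers of HSCs the shares were near those over all genes. Of 117 strong HSC regions at these 30 genes 4 were in HSCs alone (3.42%, 0.939 to 8.52), and of 134 strong HPC regions 8 in HPCs alone (5.97%, 2.61 to 11.4). At equal list length the counts were 7 and 4. Slamf1, which encodes the HSC marker CD150, had an HSC-alone region in its body (chromosome 1, 171772971 to 171773813, -log10 p 97.1), called in all 4 other HSC lists and in no HPC list. It was the single HSC-alone region at a gene of the 18 lists with this pattern. Gfi1b, a repressor gene of HSCs and the erythroid lineage, had an HSC-alone region 2.0 kb outside the gene (82.8) that was called in 1 other HSC list, that of the adult, and in no HPC list. Mecom, a transcription factor gene needed for HSC maintenance, had 1 of each: an HSC-alone region (133) called in 4 HSC and 4 HPC lists, and an HPC-alone region (187) called in 6 HPC lists and in adult HSCs. Cavin2 had 1 HSC-alone region (131), in 3 HSC and 4 HPC lists. Eya1 (199), Fli1 (93.9), Runx1 (83.0), Erg (78.3), Lmo2 (64.6) and Hlf (63.4), all transcriptional regulators of stem cells or development, had 1 HPC-alone region each, of which those in Runx1 and Erg were called in no HSC list. Procr, the gene of the HSC marker EPCR, had 4 strong regions in HSCs and 1 in HPCs, and each of these overlapped a region of the other list, strong or weak. Kit, the stem cell factor receptor gene, had 2 in each list, and Ly6a, the gene of Sca-1, 1 in each, all shared.

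At markers of multipotent progenitors the counts were small. Of 20 strong HPC regions at these 10 genes 4 were in HPCs alone (20%, 5.73 to 43.7), and of 16 strong HSC regions 0, which allows a share of up to 20.6%. At equal length 2 and 0 remained. Besides the Cd34 region, Cd27, a receptor gene of the tumour necrosis factor receptor family, had 1 (90.1). Cd48, whose product separates progenitors from HSCs, had 1 strong region in each list, shared, and 6 regions of any strength in HPCs against 3 in HSCs. Over the series Cd48 windows held 1 to 3 regions in the 5 HSC lists and 4 to 6 in the 7 HPC lists, which do not overlap. At each other marker counted in this way the ranges overlapped, for example at Cd34 (2 to 5 and 4 to 7). How many of all genes have separate ranges was not counted, so nothing particular to Cd48 is read from this. Slamf1 windows held 5 or 6 regions in HSCs of fetus, P14 and adult and 2 or 3 in P7 HSCs of set 2, against 1 to 5 in HPCs, with 5 in P14 HPCs. Flt3, a cytokine receptor gene of multipotent progenitors, had 7 strong regions in HSCs and 6 in HPCs, all shared.

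The cell cycle list had 6 of 75 strong HPC regions in HPCs alone (8%, 2.99 to 16.6) and 0 of 63 strong HSC regions in HSCs alone, which allows a share of up to 5.69%. At equal length 2 and 1 were list-specific. Cdk6, the kinase gene that drives the exit of HSCs from quiescence, had 3 of them in its body, of 10 strong HPC regions. The strongest (chromosome 5, 3502472 to 3503076, 198) was in all 6 other HPC lists and in fetal and adult HSCs, and the others (65.8 and 61.9) in all 6 HPC lists and in adult HSCs. Mcm5, a gene of the replicative helicase, had 1 (268), in 6 HPC lists and in adult HSCs. The cyclin D genes Ccnd1 (64.3) and Ccnd3 (71.5) had 1 each, the latter at the gene start, and both were under the strong limit at equal length.

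In the lymphoid priming list 5 of 73 strong HPC regions (6.85%, 2.26 to 15.3) and 2 of 59 strong HSC regions (3.39%, 0.413 to 11.7) were list-specific, and 3 and 2 at equal length. Both shares were near those over all genes. Dntt, which encodes terminal transferase, had an HPC-alone region in its body (chromosome 19, 41039041 to 41039615, 259), called in all 6 other HPC lists and in no HSC list. Lef1 (67.0) had the same pattern at a lower value. Rag1 (84.7) and Rag2 (90.2), the recombinase genes, and Ikzf1 (67.1), the gene of the lymphoid regulator Ikaros, had 1 each and were also called in HSCs of fetus or adult. Foxo1 (90.0) and Gata3 (95.7) had an HSC-alone region, the former in fetal and adult HSCs and no HPC list, the latter in 4 HSC and 4 HPC lists.

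In the B cell list 7 of 30 strong HPC regions (23.3%, 9.93 to 42.3) and 1 of 21 strong HSC regions (4.76%, 0.120 to 23.8) were list-specific, and 3 and 1 at equal length. Ebf1, the transcription factor gene that commits cells to the B lineage, accounted for 5 of the 7, of 12 strong HPC regions, and all 5 lay in its body. The strongest, at 44881115 to 44881755 (151) and 44682006 to 44682418 (92.1) on chromosome 11, were both called in all 6 other HPC lists and in no HSC list. The other 3 (76.7, 71.9 and 62.4) were also called in fetal HSCs. Counting any strength, the Ebf1 window held 27 regions in P14 HPCs and 13 in P14 HSCs, with 18 and 24 in adult and fetal HSCs. A region of 219 beside the surrogate light chain genes Igll1 and Vpreb1 was in 6 HPC lists and in adult HSCs, and Pou2af1 (79.1) was in 5 HPC lists and no HSC list. Pax5 (137) had the HSC-alone region, called in 3 HSC and 4 HPC lists.

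The myeloid list had 4 of 42 in HPCs (9.52%, 2.66 to 22.6) and 2 of 39 in HSCs (5.13%, 0.627 to 17.3), near the shares over all genes, and 2 in each at equal length. Irf4, a transcription factor gene of lymphoid and dendritic cells, had a region over an end of the gene (161) in all 6 other HPC lists and no HSC list, and Cd33 (164), Fcgr3 (75.9) and Ctsg (61.3) had 1 each. Irf8 (201), a regulator gene of monocytes and dendritic cells, and Csf2rb (103), a cytokine receptor subunit gene, had 1 HSC-alone region each. The mast cell and basophil list had 4 of 21 in HPCs (19%, 5.45 to 41.9) and 0 of 11 in HSCs, which allows a share of up to 28.5%, and 2 and 0 at equal length. Hdc, which encodes the enzyme that makes histamine, had 2 in its body, one (159) in all 6 other HPC lists and one (103) in 5, and neither in any HSC list. Mitf, a transcription factor gene of mast cells, had 2 (77.9 and 63.6). The macrophage list had 2 of 23 in HPCs, at Marco (198) and Cx3cr1 (74.3), and 1 of 14 in HSCs, in Mertk (92.2), with 1 in each at equal length.

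T and NK cell genes had 5 of 25 strong HPC regions in HPCs alone (20%, 6.83 to 40.7) and 1 of 23 strong HSC regions in HSCs alone (4.35%, 0.110 to 21.9), and 4 and 2 at equal length. The 5 lay at Trat1 (173), Klrb1c (109), Prf1 (105), which encodes perforin, Nkg7 (86.3) and Zap70 (80.2), a T cell receptor kinase gene. Those at Trat1, Klrb1c, Prf1 and Zap70 were called in all 6 other HPC lists and in no HSC list. Cd3g (201) had the HSC-alone region, called in 4 HSC and 5 HPC lists. In pooled lists, some mature cells among HPCs and open chromatin in the progenitors themselves cannot be told apart.

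Receptor genes of the niche list had 9 of 90 strong HPC regions in HPCs alone (10%, 4.68 to 18.1) and 1 of 66 strong HSC regions in HSCs alone (1.52%, 0.0384 to 8.16), and 5 and 4 at equal length. Ptger2 had 2 (924 and 77.5) and Tnfrsf1b, a receptor gene for tumour necrosis factor, had 2 in its body (193 and 73.0). Il6ra (265), Ptgir (119), the prostacyclin receptor gene, S1pr1 (114), Tgfbr2 (77.9) and Itga4 (76.7) had 1 each, and Itga5 (85.4) had the HSC-alone region. MHC and antigen presentation genes had 2 of 37 in HPCs and 1 of 37 in HSCs. A region in Tap1, the peptide transporter gene (129), whose window overlaps those of Tap2, Psmb8 and Psmb9, and one in Cd86 (169) were called in all 6 other HPC lists and in no HSC list.

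In 5 lists the share of list-specific regions was higher in HSCs, by counts of 1 to 4 regions. The fetal programme had 4 of 34 in HSCs (11.8%, 3.30 to 27.5), at Hmga2 (125), Igf2bp1 (121), Igf2 (82.9) and Peg3 (128), and 2 of 28 in HPCs (7.14%, 0.877 to 23.5), at Igf2bp2 (106) and Igf2bp3 (96.2). Of these, the Hmga2 region was called in 4 HSC lists and 1 HPC list, that of Peg3 in 4 and 2, that of Igf2bp1 in 4 and 4 and that of Igf2 in 1 and 5, while the Igf2bp2 and Igf2bp3 regions were called in 6 and 5 HPC lists and no HSC list. Erythroid and megakaryocytic genes had 2 of 60 in HSCs, at Rhd (92.0) and Slc4a1 (80.3), and 1 of 56 in HPCs. Interferon-stimulated genes had 1 of 42 in HSCs, beside Ifit1 (85.8), and 1 of 51 in HPCs, in Ddx58 (77.4). Immediate early genes had 1 of 48 in HSCs, beside Junb (90.2), and 0 of 51 in HPCs, which allows a share of up to 6.98%. Hepatocyte markers had 1 of 13 in HSCs and 0 of 16 in HPCs. Endothelial markers had 0 of 34 in HSCs and 2 of 35 in HPCs, at Cdh5 (76.3) and Stab2 (106), and stromal markers 1 of 31 in each.

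Most promoter windows were called in both lists or in neither. Of 32619 RefSeq promoter windows of 300 bases, 14605 overlapped a region in both P14 lists, 491 in HSCs only, 1120 in HPCs only and 16403 in neither. A strong list-specific region overlapped 24 windows (23 genes) in HSCs and 161 windows (148 genes) in HPCs. Leaving out predicted genes with numbered names, the 15 windows with an HSC-alone region were led by H2-Q6 (171), Abr (168), Dnajc8 and Atpif1 (141, 1 region), Ttll6 (128) and Cck (121), and each of these regions was called in at least 1 other HPC list. Of the 92 windows with an HPC-alone region 13 had one that no HSC list held, 8 of them with the region in all 6 other HPC lists. The 8 included, besides Siglech, Btla and Trem1, those of B3galt5 (159), Tinag (132) and Prf1 (105). Cd300c (111), an immune receptor gene, and Sh2d1b1 (102), an adaptor gene of NK cells, had theirs in 5 other HPC lists and no HSC list. So did P2ry14 (63.2), a receptor gene for UDP-sugars. Over all HPC-alone regions 912 of 4776 (19.1%) were called in no HSC list. Of the 301 genes in the gene lists 222 matched a window, and their 281 windows were called in both lists in 156 cases, in HSCs only in 5 (Selp, Tbx21, Ifit3, S100a8 and Oas1a) and in HPCs only in 23. Those in HPCs only included Cd48 (51.4), Mpo (16.3), the myeloperoxidase gene, and Eomes (66.5), a transcription factor gene of T and NK cells. The windows of Slamf1 (81.9) and Mecom, which are in the list of HSC regulators and markers, were also called in HPCs only. The HPC regions at Slamf1 and Eomes were strong but not list-specific: each overlapped a P14 HSC region that did not reach the promoter window. A window called in 1 list only thus does not always hold a list-specific region.

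Motifs were searched on both strands of these windows as a description. The GATA motif, AGATAA, was in 12.6% (9.82 to 15.9) of windows called in HSCs only, 10.9% (9.13 to 12.9) of those in HPCs only, 5.59% of those in both and 11.2% of all windows. TGTGGTT (RUNX) was in 4.89%, 5.62%, 3.83% and 5.29% of these groups, GAGGAAGT (ETS) in 3.26%, 4.11%, 3.35% and 3.22%, TGANTCA (AP-1) in 11%, 8.66%, 4.59% and 7.85%, TTGCNNAA (CEBP) in 10.6%, 12.4%, 7.77% and 10.9%, and TGATTTAT (HOX with MEIS) in 1.02%, 0.893%, 0.315% and 0.981%. The intervals of HSC-only and HPC-only windows overlapped for each of the 6 motifs. Windows called in both lists had a median GC content of 61.7%, against 53.3% and 54.7% in windows called in HSCs only and HPCs only, and the part of base composition in their lower motif shares was not tested.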

How the data were processed

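ATAC-seq peak lists of mouse HSCs and HPCs were used as deposited, 1 pooled list per group. Per the submitters' processing notes the authors used Bowtie2 and MACS2 on mm10 (GRCm38); their versions and settings, the pooling and the read depth are not stated there. Per peak, the deposited lists hold a score, the fold (ratio) over local background, and -log10 values of p and q, all made by the authors. Ranks were taken within a list, and the score was not used. Precision is limited by counts of regions, since depth is unknown.

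Peaks were merged, regions compared by overlap of 1 bp or more, and strong regions defined as the upper 50% of a list, with Python 3.11.15, numpy 2.4.6, pandas 2.3.3 and scipy 1.17.1, after a test on simulated data. Genes and 32619 promoter windows came from RefSeq tables for GRCm38.p6, and 301 of the 305 genes in the lists matched by symbol. A gene window is the body and 10 kb on each side.

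The members, gene lists and tests were chosen with earlier results of these data known. Named genes are those nearest (within 50 kb) the 15 strongest list-specific regions per direction, up to 4 members per gene list with a difference of at least 2 regions, the 6 genes with most regions per direction, and Cd48, Slamf1, Procr, Mecom, Hlf, Kit, Ly6a, Cd34, Flt3, Cdk6 and Ebf1. All other genes named were chosen after their values were seen. Some of the named genes are not reported here. Lists for 18 groups were counted: HSC regulators and markers, multipotent progenitors, cell cycle, lymphoid priming, B cells, the myeloid programme, macrophages, mast cells and basophils, erythroid and megakaryocytic cells, T and NK cells, interferon-stimulated genes, MHC, immediate early genes, niche receptors, the fetal programme, hepatocytes, endothelium and stroma. Alternatives were equal list length, other strength limits and ranking, stricter overlap and thresholds, wider windows and leaving out lists. Motifs within regions were planned and not analysed here, because no genome sequence was used; 6 of 8 motifs were searched in promoters.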

Additional observations from a re-analysis of the deposited data

Results flagged for a closer look

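Chromosome Y was outside the comparison, which covered chromosomes 1 to 19 and X. The P14 HSC list held 28 peaks there and the P14 HPC list 25, more than the limit of 3 that a count of 0 allows. The labels do not give the sex of the animals.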

How the results depend on the processing

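The strong regions in HSCs alone, 961 in the comparison reported, numbered 11631 with regions of any strength, 1507 at equal list length, 1677 when strength was ranked by fold and 48 in the upper 25% of each list. Those in HPCs alone, 4776, numbered 28428 with any strength, 2663 at equal length and 720 in the upper 25%. HPCs had more in each of these, and in the other settings (overlap of 50% of the shorter region, padding by 500 bp, a -log10 q of at least 2, equal number of peaks) both counts stayed within 1.5 times. The difference between HSC and HPC lists, 76.8 points for strong regions, fell to 32.3 points with list-specific regions of any strength (exact permutation p = 0.00952). Its size thus depended on the limit to strong regions. For strong regions the difference ranged from 66.6 to 86.4 when each of the 10 other lists was left out, with the 4 HSC lists above the HPC lists throughout (exact permutation p from 0.0159 to 0.0238). In set 1 alone it was 66.7 points with an exact permutation p of 0.133, with 2 HSC and 4 HPC lists left. With HSC and HPC lists paired by age and genotype, chosen after seeing the data, it was 65.5 points with an exact permutation p of 0.125 (4 pairs). The share of HPC-alone minus that of HSC-alone regions changed sign in 8 gene lists. At equal length it became -2.17 points for HSC regulators, -1.88 for macrophages and -2.55 for endothelium. With windows of 50 kb it became 0.673 for interferon-stimulated and 0.0545 for immediate early genes. With all regions it became 2.63 for erythroid, 3.79 for interferon-stimulated, 3.66 for fetal programme and 14.8 for hepatocyte genes. The cause was not tested. As to replicate numbers, no paired analysis was possible because the pooled lists carry none, and no library could be left out. Unknown depth, the 2 kinds of lists and the assignment of lists by name limit all results.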
